A study of Homo sapiens with 24 samples.

Results

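The ATP-binding cassette (ABC) family was described in OVCAR8, an established human cell line from a serous ovarian carcinoma of high grade. Members were the protein-coding genes with a symbol made of ABC, a subfamily letter from A to G and a number, and with a mean of at least 0.1 FPKM (fragments scaled to gene length and library total) over all 24 libraries. In all, 30 of the 45 such symbols reached this minimum, as did 14383 of the 19951 protein-coding genes. The rule read the mean level only and no difference between media. Just inside the minimum were ABCG2 at a mean of 0.12 FPKM and ABCC9 at 0.188 FPKM, and just outside it were ABCD2 at 0.0833 FPKM, ABCC11 at 0.0832 FPKM and ABCG1 at 0.0743 FPKM. All 30 members also passed the filter on low counts that precedes the test. Of the 15 family genes below the minimum, 5 passed that filter and none of these changed in any comparison.

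Cells grew without attachment, in plates of the ultra-low attachment kind, and each of 8 groups had 3 libraries. The labels give all groups RPMI medium with 5% fetal bovine serum and state 1 protocol for them, conditioned medium mixed 1 to 1 with that medium, without saying how it applied to the fresh and pre-treated groups. The groups received fresh medium, medium from vehicle-treated proliferating cells (proliferative medium), medium from cells driven into senescence by the platinum drug cisplatin (senescent medium), boiled senescent medium, or senescent medium split by size into the part under 3 kDa (small fraction) and the part over 3 kDa (large fraction). In another 2 groups the cells had first been exposed to one of the conditioned media, proliferative or senescent (pre-treated). The medium at harvest of these groups is not stated, nor is the identity of the cells that conditioned the media. The labels do not name separate cultures, so p-values measure the spread between these libraries, which may be technical.

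Most ABC proteins bind ATP in a pair of nucleotide-binding domains and use it to move a substrate across a membrane. Subfamily A carries lipids, B holds the drug pump P-glycoprotein and several transporters of mitochondria and lysosomes, C holds the multidrug resistance proteins (MRPs), D works mostly at peroxisomes, and G moves sterols and drugs. ABCE1 and the F subfamily lack membrane-spanning domains and act in translation. In ovarian cancer the family is known mainly for the export of drugs, among them taxanes (ABCB1) and glutathione conjugates (the MRPs).

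Promoter sequence was at hand in RefSeq (build GRCh38.p14) for 24 of the 30 members, and ABCA4, ABCB4, ABCC1 and ABCC3 were among those without an entry. Stretches are shown for 4 members that changed in several media. ABCE1 and ABCF1 were low in proliferative medium and in the small fraction, and ABCA7 and ABCD4 were low in senescent medium. Each is written 5′ to 3′ on the gene's strand, taken from the 250 bases before the RefSeq start and limited to bases upstream of the gene in GENCODE 29. For ABCE1 that window lies inside the annotated gene, so only 30 bases around its motif are shown. Capitals mark motif matches. ABCE1 is chr4:145098202-145098231 (plus strand), ABCF1 chr6:30571192-30571375 (plus), ABCA7 chr19:1039857-1040100 (plus) and ABCD4 chr14:74303057-74303184 (minus).
ABCE1: tcgcagctcaaTGACGTCAtatctccctac
ABCF1: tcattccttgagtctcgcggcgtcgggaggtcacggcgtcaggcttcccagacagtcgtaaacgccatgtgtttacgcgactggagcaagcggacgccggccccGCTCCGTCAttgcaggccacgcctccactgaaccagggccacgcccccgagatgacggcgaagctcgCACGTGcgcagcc
ABCA7: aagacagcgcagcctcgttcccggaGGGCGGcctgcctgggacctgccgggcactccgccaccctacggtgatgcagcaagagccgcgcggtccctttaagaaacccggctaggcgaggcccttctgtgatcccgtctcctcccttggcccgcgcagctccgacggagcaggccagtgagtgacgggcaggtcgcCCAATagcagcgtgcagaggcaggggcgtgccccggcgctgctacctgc
ABCD4: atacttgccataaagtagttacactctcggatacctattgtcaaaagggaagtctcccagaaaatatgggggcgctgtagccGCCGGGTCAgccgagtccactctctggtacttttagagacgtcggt

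Motifs were searched on both strands in the 250 bases before each start, with overlapping matches allowed, in 35116 promoters of all genes and 35 of members (a gene can have several). The cAMP response element TGACGTCA was in 1.65% of all promoters and in 1 of the members', that of ABCE1, 98 bases before the start. The antioxidant response element core TGACNNNGC was in 10.9% of all promoters and 25.7% of the members', among them ABCF1 and ABCD4. The E-box CACGTG was in 6.34% and 20%, the GC box GGGCGG in 42.6% and 65.7%, the CCAAT box in 32% and 17.1%, and TATAAA in 10.7% and 11.4%. Genes behind all promoters did not have to reach the members' minimum of 0.1 FPKM, so the shares are not of like genes. Windows of 1 gene can overlap, as some of ABCG2 do, so a match can be counted more than once. A match describes the letters and is not evidence of a bound site.

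Libraries held 14718120 to 21956598 counted reads, with 4.09% to 6.85% from mitochondrial genes. Of 9 markers of serous ovarian carcinoma epithelium, 5 had a mean of at least 1 FPKM, including the lineage factor PAX8 (19.7 to 40.6 FPKM) and EPCAM (5.26 to 9.43 FPKM), whereas WT1 (0.193 to 0.606 FPKM), MUC16, CDH1 and MECOM were low or near 0. Fibroblast markers summed to 125 to 227 FPKM, nearly all COL1A1. Of the others, PDGFRB had a median of 8.3 FPKM (5.62 to 13.1 FPKM), and DCN and COL1A2 had a median of 0. The leukocyte marker CD14 had a median of 1.84 FPKM (0.648 to 3.63 FPKM), while PTPRC and CD3E had a median of 0. The fibroblast sum was lowest in senescent medium (125 to 132 FPKM) and the epithelial sum in the small fraction (288 to 298 of 288 to 477 FPKM), and the part of either in the results was not tested. Senescent medium libraries held relatively less of long genes (r of −0.27 to −0.18 between gene length and each library's deviation, across 13237 genes that are not independent), and pre-treated libraries relatively more (0.07 to 0.22). Members are long: their median length was 7765.5 bases against 4905.0 for protein-coding genes at the same minimum, and 25 of 30 were longer than that median.

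Translation factors and 1 drug exporter led the family in level. FPKM divides reads by the deposited gene length, so an order between genes depends on that length. By reads alone, ABCB8 (25524) stood above ABCB10 (12738), the reverse of their mean FPKM (6.59 and 7.2). ABCF1, which acts in translation initiation, had a mean of 40.2 FPKM (35.2 to 44.2 over the libraries), ABCC1 (MRP1, an exporter of glutathione conjugates and anticancer drugs) 29.7 FPKM and the ribosome recycling factor ABCE1 22.4 FPKM. The lipid transporters ABCA3 and ABCA2 followed at 21.9 and 15.7 FPKM, then the peroxisomal fatty acid transporter ABCD3 at 13 FPKM. ABCE1 and the 3 F members together made up 35.2% of the members' summed FPKM. The classical drug pumps were low: ABCB1 (P-glycoprotein) had a mean of 0.689 FPKM and ABCG2 (breast cancer resistance protein) 0.12 FPKM.

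By subfamily, members were 6 of 12 symbols in A, 7 of 9 in B, 8 of 11 in C, 3 of 4 in D, the single E gene, all 3 in F and 2 of 5 in G. A mean of at least 1 FPKM was reached by 22 members, and neither G member was among them. Group means spanned at least 2-fold, highest over lowest, for 7 members: ABCC3 (5.57-fold), ABCB6 (4.58-fold), ABCB4 (2.63-fold), ABCG4 (2.46-fold), ABCG2 (2.22-fold), ABCB1 (2.16-fold) and ABCC9 (2.13-fold). Of these, ABCC3 alone had a mean of at least 1 FPKM. Differences within a group, as the root mean square over groups of SD over mean, were 2.3% for ABCF1 and 41.8% for ABCG2.

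**Figure D1:**
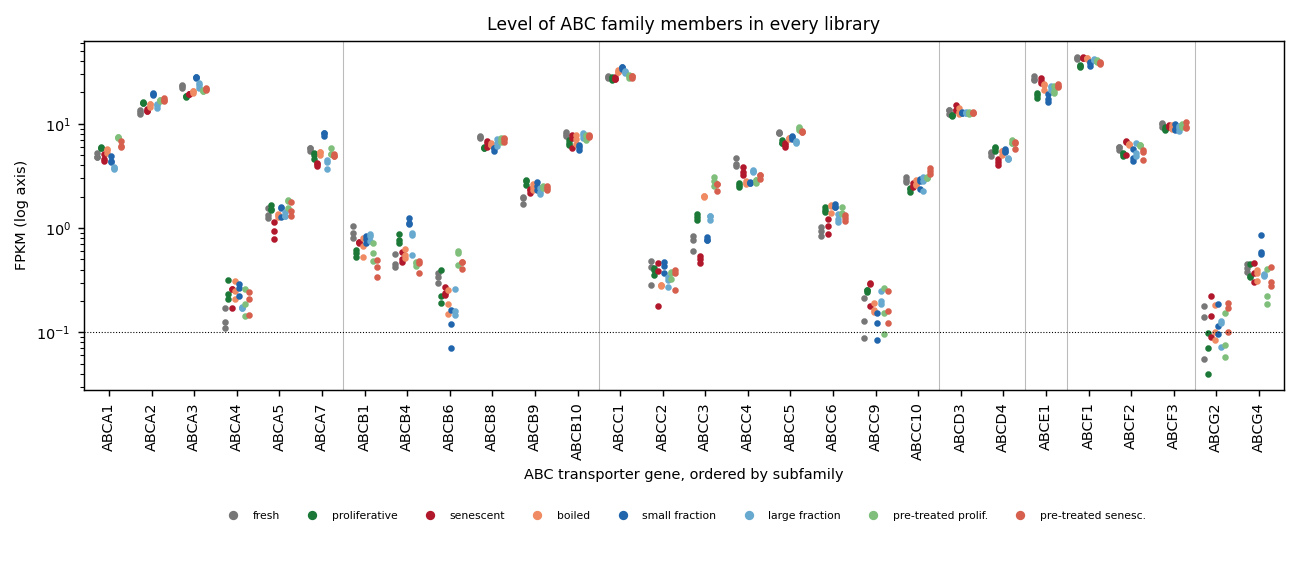
FPKM on a log axis of 28 of the 30 ABC members, ordered by subfamily, with 1 point per library coloured by medium group (3 libraries each); the dotted line is the minimum of 0.1 FPKM. ABCF1, ABCC1 and ABCE1 sit highest, ABCG2 and ABCC9 lie near the line, and ABCC3 spreads widest between groups.

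Differences were tested across all 19210 genes with edgeR (quasi-likelihood F test, Benjamini-Hochberg adjusted p under 0.05), and "rose" or "fell" below means past that threshold. A difference in RNA level can come from a change in each cell or in the mix of cell states, since fewer cells of a type and less RNA per cell cannot be told apart in bulk RNA. The comparisons share libraries: fresh medium enters 4 of them and senescent medium 5, beside the interaction, so their values are given side by side and not as independent evidence.

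Against fresh medium, proliferative medium shifted most of the family, in both directions. Of the 30 members 10 rose, beside 20.6% of all genes tested, and 11 fell, beside 21.5%, with a median log2 fold change of −0.13 (0.00 over all genes). The median size of the change, without its sign, was 0.30 for the members and 0.30 over all genes. Genes tested did not have to reach the members' minimum of 0.1 FPKM, so the shares are not of like genes. ABCC3, ABCA4, ABCC9, ABCB4, ABCC6 and ABCB9 rose by 0.57 to 0.88, and ABCC4, ABCB1 and ABCE1 fell by 0.56 to 0.71 on the log2 scale. The calls of ABCA4 and ABCC9 were lost on leaving out single libraries, which are named with each gene. Senescent against fresh medium gave 3 rises (18.2% of all genes) and 8 falls (15.5%), with a median of −0.08. The falls were led by ABCC3 (−0.55), ABCA5 (−0.54), ABCA7 (−0.49) and ABCC5 (−0.40). This total of 11 was 7 without fresh replicate 3. With library totals in place of TMM scaling, a trimmed mean that evens out composition, the split was 1 rise and 12 falls, and with DESeq2 it was 1 and 8.

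Set against each other, senescent and proliferative medium differed for 14 members. In senescent medium 5 rose (16.6% of all genes) and 9 fell (12.4%), with a median of −0.04. Those that rose were ABCE1, ABCF1, ABCF2, ABCD3 and ABCC4, and those that fell were ABCC3, ABCA5, ABCB4, ABCC6, ABCD4, ABCA1, ABCB9, ABCA7 and ABCA2. The calls of ABCF2 and ABCB4 were lost on leaving out single libraries, which are named with each gene. With an offset for gene length and GC content the split was 8 rises and 6 falls, as ABCA2 (adjusted p = 0.134), ABCA7 (0.0941) and ABCB9 (0.218) no longer passed and ABCA3, ABCB8 and ABCC10 rose.

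More members rose than fell when senescent medium was boiled or fractionated. Against intact senescent medium, boiled medium gave 9 rises (11.2% of all genes) and 2 falls (14.7%), and the falls were ABCC4 (−0.37) and ABCE1 (−0.18, lost without senescent replicate 3 or boiled replicate 3). The small fraction gave 12 rises (19.9%) and 9 falls (22.7%), with a median of 0.13 beside 0.03 over all genes, and 13 and 5 with library totals. The large fraction gave 6 rises (8.14%) and 3 falls (10%). Between the fractions, small minus large, 11 rose (16.8%) and 7 fell (18.3%), and 12 and 4 with library totals. The small fraction held the highest group mean for 11 of the 30 members, more than any other group, and the lowest for 6. This count was not made over all genes, so it cannot be read as a trait of the family.

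Members changed in pre-treated cells against fresh medium, and none passed the test between the pre-treatments. After pre-treatment with proliferative medium 9 members rose (15.1% of all genes) and 4 fell (16.7%), and after senescent medium 8 rose (14.6%) and 5 fell (15.6%). With the length and GC offset these splits were 9 and 8, and 7 and 7. Between the pre-treatments, edgeR called none of the 30 (0.625% of all genes rose and 0.265% fell), 6 had an unadjusted p under 0.05, and DESeq2 called 1, ABCA1. The senescent minus proliferative difference itself was compared between pre-treated and directly exposed cells with an interaction term, which was positive for 4 members (5.58% of all genes) and negative for 5 (8.19%), or 5 and 3 with library totals.

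**Figure D2:**
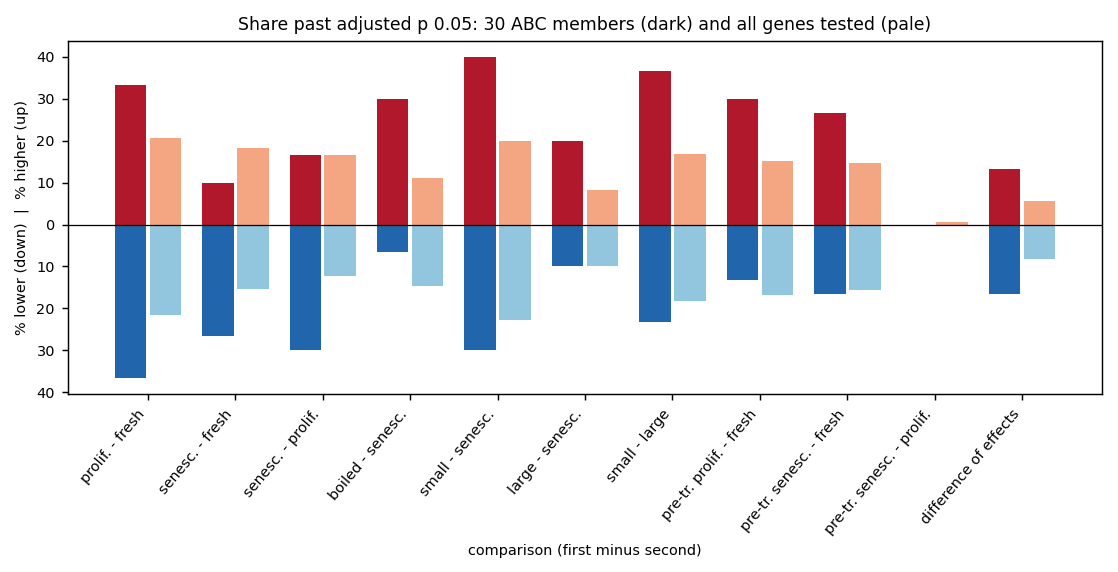
Percent of features past an edgeR adjusted p of 0.05 in each comparison, upward for higher and downward for lower in the first-named group, for the 30 ABC members (dark bars) and all genes tested (pale bars); the last entry is the interaction. The members' bars are taller than the background in both directions for proliferative against fresh medium, and absent for the pre-treated pair. Genes tested did not have to reach the members' minimum of 0.1 FPKM.

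**Figure D3:**
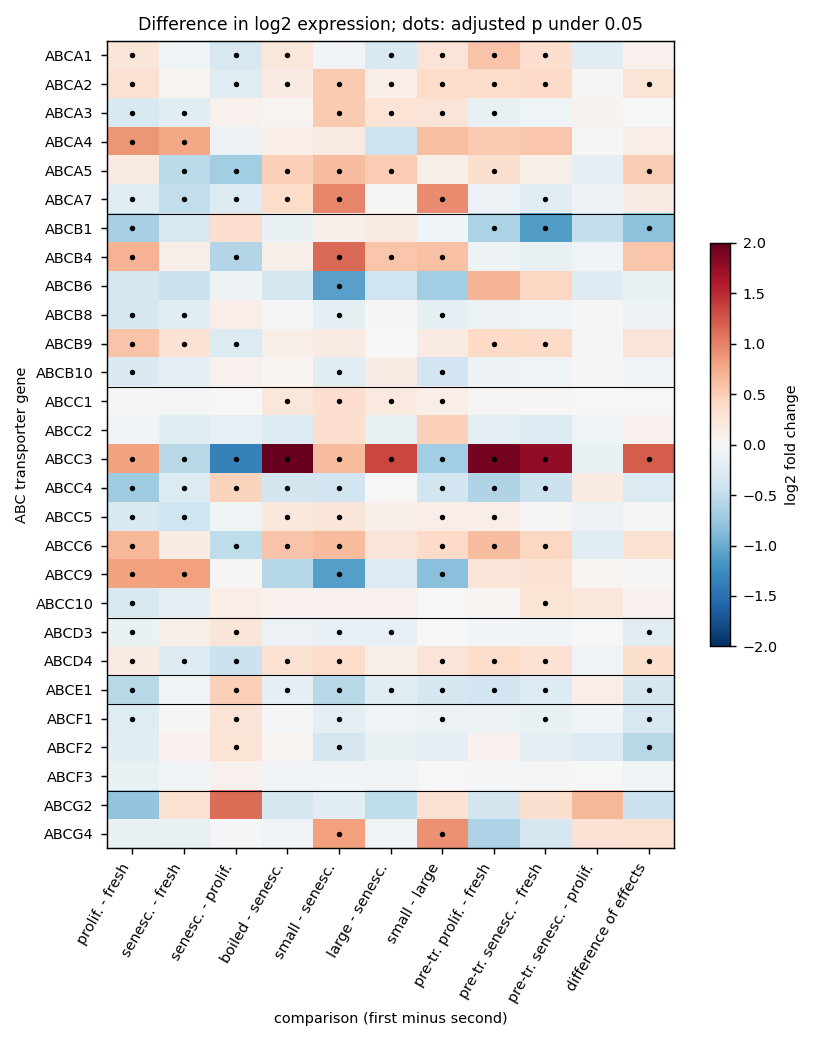
Log2 fold change (colour, −2 to 2) of 28 of the 30 ABC members (rows, by subfamily) in each comparison (columns, first minus second; the last column is the interaction), with a dot where the edgeR adjusted p is under 0.05. ABCC3 has the strongest colours, and ABCE1 and ABCF1 are blue where several A members are red in the small fraction column.

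ABCC3 (MRP3), which exports glucuronides, bile salts and some drugs, had the widest range of group means (ENSG00000108846, chr17:50634777-50692252 in GRCh38). In fresh medium its libraries had 0.599, 0.849 and 0.766 FPKM, in proliferative medium 1.38, 1.28 and 1.19 FPKM and in senescent medium 0.539, 0.51 and 0.459 FPKM. Boiled medium gave 2.00, 2.04 and 2.02 FPKM, the small fraction 0.77, 0.817 and 0.761 FPKM and the large fraction 1.2, 1.3 and 1.31 FPKM. Pre-treated cells had 3.07, 2.52 and 2.81 FPKM after proliferative and 2.26, 2.66 and 2.67 FPKM after senescent medium. Senescent medium thus held the 3 lowest libraries of all and the pre-treated groups the 6 highest. Every group stood clear of senescent medium, and the pre-treated groups overlapped each other.

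The ABCC3 tests followed these gaps. It rose by 0.80 ± 0.12 (log2 fold change ± SE) in proliferative against fresh medium (adjusted p = 5.21e-07) and fell by 1.35 ± 0.13 from proliferative to senescent medium (3.81e-11). Boiled medium was 2.00 ± 0.12 above senescent medium (6.65e-17). The large fraction was 1.34 ± 0.13 above it (9.02e-11) and the small fraction 0.64 ± 0.14 above it (0.000167), so that neither fraction reached the boiled level. Small was below large by −0.70 ± 0.12 (5.05e-06). Against fresh medium ABCC3 rose by 1.92 ± 0.11 after proliferative (5.14e-18) and by 1.78 ± 0.11 after senescent pre-treatment (9.83e-17). The pre-treated pair differed by −0.14 ± 0.10 (0.752), and the interaction was 1.21 ± 0.16 (6.4e-07).

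The other exporters of the C subfamily moved less, and not together. ABCC1 read 27.9, 28.5 and 27.5 FPKM in fresh, 26.6, 27.3 and 28.3 FPKM in proliferative and 26.8, 28.4 and 26.7 FPKM in senescent medium. It read 31.3, 33 and 31.5 FPKM in boiled medium, 35.3, 35.1 and 33.7 FPKM in the small and 30.5, 31.4 and 32.3 FPKM in the large fraction, and 28.8, 27.4 and 29.3 then 27.7, 28.6 and 28.9 FPKM after the pre-treatments. All 9 libraries of treated senescent medium lay above all 3 of intact senescent medium, and the other groups overlapped. ABCC1 rose against senescent medium by 0.22 ± 0.04 when boiled (adjusted p = 4.05e-05), 0.34 ± 0.04 in the small fraction (2.46e-09) and 0.20 ± 0.04 in the large fraction (0.000309), and differed by −0.00 ± 0.04 between senescent and proliferative medium (0.977).

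ABCC4 (MRP4), an exporter of cyclic nucleotides and prostaglandins, was highest in fresh medium, at a mean of 4.24 ± 0.373 FPKM (SD, n = 3), and lowest in proliferative medium at 2.6 ± 0.122 FPKM. It fell against fresh medium in proliferative medium (−0.71), senescent medium (−0.27) and both pre-treated groups (−0.60 and −0.43), and it fell from senescent medium to boiled medium (−0.37) and to the small fraction (−0.38). Its fall in senescent medium was lost without fresh replicate 3 (adjusted p = 0.0809) or senescent replicate 2 (0.0619). ABCC5 (MRP5), which also exports cyclic nucleotides, ran from a mean of 6.27 FPKM in senescent medium to 9.09 FPKM after proliferative pre-treatment, and fell by 0.30 in proliferative and by 0.40 in senescent medium against fresh. ABCC10 (MRP7), a drug exporter, ranged from 2.34 to 3.55 FPKM and changed in 2 comparisons (a fall of 0.32 in proliferative medium and a rise of 0.27 after senescent pre-treatment against fresh, the latter lost without fresh replicate 1 or 3 or pre-treated senescent replicate 1 or 3), and ABCC2 (MRP2) from 0.284 to 0.429 FPKM, in none.

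ABCC6, which drives ATP release and is mutated in pseudoxanthoma elasticum, rose in proliferative against fresh medium and on boiling, as ABCC3 did, but was highest in the small fraction. Its libraries had 1.03, 0.943 and 0.841 FPKM in fresh, 1.42, 1.58 and 1.49 FPKM in proliferative and 0.878, 1.21 and 1.05 FPKM in senescent medium. Boiled medium gave 1.63, 1.67 and 1.4 FPKM, the small fraction 1.58, 1.58 and 1.72 FPKM, the large 1.14, 1.23 and 1.36 FPKM, and pre-treatment 1.59, 1.4 and 1.37 then 1.17, 1.26 and 1.33 FPKM. Proliferative, boiled and small fraction libraries all lay above those of senescent medium, and the large fraction overlapped it. ABCC6 fell by 0.51 ± 0.13 from proliferative to senescent medium (adjusted p = 0.00182) and rose on boiling by 0.57 ± 0.13 (0.000575). Unlike ABCC3, it was higher in the small than in the large fraction, by 0.39 ± 0.12 (0.0107, lost without small fraction replicate 3 or large fraction replicate 1), and differed by 0.15 ± 0.13 between senescent and fresh medium (0.407). Reads of ABCC6 and its near-identical pseudogenes may have been shared, so its level is uncertain.

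ABCC9 (SUR2), a regulatory subunit of potassium channels rather than an exporter, lay near the detection minimum. Its values were 0.212, 0.0886 and 0.129 FPKM in fresh, 0.257, 0.244 and 0.254 FPKM in proliferative, 0.298, 0.293 and 0.179 FPKM in senescent and 0.157, 0.163 and 0.193 FPKM in boiled medium. The fractions had 0.153, 0.123 and 0.0848 FPKM (small) and 0.25, 0.188 and 0.2 FPKM (large), and pre-treated cells 0.154, 0.265 and 0.0958 then 0.251, 0.161 and 0.124 FPKM. The small fraction lay below senescent medium without overlap, and ABCC9 fell there by 1.10 ± 0.32 (adjusted p = 0.0047), in every leave-one-out fit too. Its rises against fresh medium, 0.80 ± 0.31 in proliferative (0.0357) and 0.82 ± 0.31 in senescent medium (0.038), rested on single libraries. The first was lost on leaving out any library but fresh replicate 1, with adjusted p up to 0.185. The second was lost without fresh replicate 2 or 3 or senescent replicate 1 or 2, with adjusted p up to 0.192.

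At the plasma membrane, the drug pump ABCB1 (ENSG00000085563, chr7:87503633-87713323) was highest in fresh medium. ABCB1 had 1.04, 0.797 and 0.896 FPKM in fresh, 0.534, 0.62 and 0.579 FPKM in proliferative, 0.721, 0.732 and 0.738 FPKM in senescent and 0.531, 0.801 and 0.678 FPKM in boiled medium. The fractions had 0.843, 0.723 and 0.786 FPKM (small) and 0.838, 0.76 and 0.874 FPKM (large), and pre-treated cells 0.571, 0.72 and 0.479 (proliferative) then 0.339, 0.498 and 0.427 FPKM (senescent). Fresh medium lay above proliferative medium, senescent medium and both pre-treated groups without overlap. The difference of senescent from fresh medium, −0.32 ± 0.19, did not pass (adjusted p = 0.192). ABCB1 fell by 0.67 ± 0.19 in proliferative medium (adjusted p = 0.00431), by 0.64 ± 0.19 after proliferative pre-treatment (0.00772) and by 1.12 ± 0.20 after senescent pre-treatment (2.11e-05). The second of these was lost without fresh replicate 1 (0.0588) or pre-treated proliferative replicate 3 (0.071). At well under 1 FPKM, it was one of the lower drug exporters here, below ABCC1, ABCC4 and ABCC5 in every group.

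ABCB4, which flips phosphatidylcholine into bile in liver, was highest in the small fraction. Its libraries had 0.456, 0.424 and 0.566 FPKM in fresh, 0.716, 0.886 and 0.765 FPKM in proliferative, 0.473, 0.584 and 0.506 FPKM in senescent and 0.628, 0.554 and 0.521 FPKM in boiled medium. They had 1.25, 1.11 and 1.09 FPKM in the small and 0.858, 0.551 and 0.901 FPKM in the large fraction, and 0.429, 0.458 and 0.475 then 0.37, 0.46 and 0.485 FPKM in pre-treated cells. The 3 small fraction libraries were above all the others. ABCB4 rose there by 1.14 ± 0.18 over senescent medium (adjusted p = 9.36e-07) and by 0.58 ± 0.17 over the large fraction (0.00527), although the latter was lost without large fraction replicate 2 (0.0875). It rose by 0.70 ± 0.18 in proliferative against fresh medium (0.00169) and fell by 0.59 ± 0.18 from proliferative to senescent medium (0.0113), a call lost without proliferative replicate 2 (0.0727) or senescent replicate 1 (0.0563).

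Of the organelle members of the B subfamily, ABCB10 and ABCB8 shifted by small amounts. ABCB10, an inner mitochondrial membrane transporter needed for haem synthesis, had the highest mean FPKM of the B members. Its libraries had 8.08, 7.65 and 8.27 FPKM in fresh and 6.94, 6.23 and 6.53 FPKM in proliferative medium. It had 7.25, 7.79 and 5.89 FPKM in senescent and 7.86, 6.44 and 7.19 FPKM in boiled medium. It had 6.01, 5.56 and 6.29 FPKM in the small and 7.8, 8.18 and 7.3 FPKM in the large fraction, and 7.05, 7.65 and 7.81 then 7.89, 7.41 and 7.62 FPKM after pre-treatment. The small fraction lay below the large one without overlap, by −0.38 ± 0.09 (adjusted p = 0.000358), and proliferative below fresh medium by −0.29 ± 0.09 (0.00557). ABCB10 also has pseudogenes with which reads may have been shared. ABCB8, of the mitochondrial ATP-sensitive potassium channel, ran from 5.75 FPKM in the small fraction to 7.52 FPKM in fresh medium and fell in 4 comparisons. Of these falls, that in proliferative against fresh medium (−0.35) held in every leave-one-out fit, and the other 3 were lost without senescent replicate 3 (senescent against fresh), large fraction replicate 2 (small against large fraction), or senescent replicate 1 or 2 or small fraction replicate 3 (small fraction against senescent).

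ABCB6, a porphyrin transporter, was scarce but spread widely between groups. It had 0.299, 0.369 and 0.339 FPKM in fresh, 0.222, 0.192 and 0.398 FPKM in proliferative, 0.241, 0.275 and 0.229 FPKM in senescent and 0.186, 0.257 and 0.149 FPKM in boiled medium. It had 0.164, 0.071 and 0.119 FPKM in the small and 0.148, 0.159 and 0.258 FPKM in the large fraction, and 0.597, 0.577 and 0.447 then 0.473, 0.403 and 0.473 FPKM in pre-treated cells. All 6 pre-treated libraries lay above all others, with a difference from fresh medium of 0.68 ± 0.29 (adjusted p = 0.0706) and 0.42 ± 0.30 (0.305). The 1 call was the fall from senescent medium to the small fraction, by 1.09 ± 0.37 (0.0145), lost without senescent replicate 2 (0.0504) or small fraction replicate 2 (0.0978). ABCB9, a lysosomal peptide transporter, was lowest in fresh medium (1.86 ± 0.151 FPKM, SD, n = 3) and highest in proliferative medium (2.77 ± 0.142 FPKM), rose by 0.57 ± 0.08 between them (1.17e-07), and rose against fresh medium in senescent medium and both pre-treated groups as well (0.29 to 0.40). Its rise in senescent medium was lost without fresh replicate 3 (0.0544).

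Among the lipid transporters of subfamily A, ABCA7, which moves phospholipids and is tied to the risk of Alzheimer's disease (ENSG00000064687, chr19:1040101-1065572), was highest in the small fraction. Its libraries had 5.52, 5.93 and 5.82 FPKM in fresh, 4.58, 5.23 and 5.05 FPKM in proliferative, 4.24, 4.09 and 3.93 FPKM in senescent and 5.00, 5.34 and 5.39 FPKM in boiled medium. They had 8.22, 8.24 and 7.64 FPKM in the small and 4.29, 4.5 and 3.67 FPKM in the large fraction, and 5.87, 5.18 and 5.09 then 4.94, 4.89 and 5.16 FPKM after pre-treatment. The small fraction was clear of every other library, while the large fraction overlapped intact senescent medium. ABCA7 rose by 0.97 ± 0.07 in the small fraction over senescent medium (adjusted p = 4.43e-15) and by 0.95 ± 0.07 over the large fraction (6.13e-15), and rose by 0.36 ± 0.07 on boiling (0.000214). The large fraction differed from senescent medium by 0.02 ± 0.07 (0.877).

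ABCA3, which loads surfactant lipids into lamellar bodies in lung, had the highest mean FPKM of the A members. It had 23.8, 21.9 and 22.9 FPKM in fresh, 18.7, 18.5 and 18.3 FPKM in proliferative, 19.4, 19.5 and 19.4 FPKM in senescent and 19.7, 20.6 and 20.8 FPKM in boiled medium. It had 28, 28.4 and 27.7 FPKM in the small and 22.2, 23.6 and 24.5 FPKM in the large fraction, and 21, 20.5 and 20.5 then 21.7, 21.2 and 22.1 FPKM in pre-treated cells. The small fraction again held the 3 highest libraries. ABCA3 rose over senescent medium by 0.52 ± 0.04 in the small (adjusted p = 8.28e-14) and by 0.27 ± 0.04 in the large fraction (9.26e-06). ABCA2, an endosomal and lysosomal lipid transporter, behaved alike in the small fraction, at 19.4 ± 0.356 FPKM (SD, n = 3) against 13.5 ± 0.238 FPKM, a rise of 0.52 ± 0.04 (1.59e-13). It was lowest in fresh medium, at 13 ± 0.584 FPKM, and rose against it by 0.30 in proliferative medium and by 0.36 and 0.39 in pre-treated cells.

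ABCA1, the cholesterol exporter that lipidates apolipoprotein A-I, followed another order. Its mean was 3.79 ± 0.0907 FPKM (SD, n = 3) in the large fraction, 4.54 ± 0.374 FPKM in the small fraction, 4.71 ± 0.39 FPKM in senescent, 4.97 ± 0.264 FPKM in fresh, 5.53 ± 0.286 FPKM in boiled and 5.87 ± 0.115 FPKM in proliferative medium, then 6.34 ± 0.481 and 7.45 ± 0.0717 FPKM in the senescent and proliferative pre-treated cells. Both pre-treated groups rose against fresh medium, by 0.57 ± 0.06 (proliferative, adjusted p = 1.24e-09) and 0.34 ± 0.06 (4.82e-05). Proliferative medium raised ABCA1 by 0.24 ± 0.06 over fresh (0.00292), and it fell by 0.32 ± 0.07 from proliferative to senescent medium (0.000205). The pre-treated libraries did not overlap each other, and their difference of −0.23 ± 0.06 did not pass (0.0738), although it did without pre-treated senescent replicate 1 (0.0299).

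ABCA5, a lysosomal and endosomal member linked to cholesterol handling, was lowest in senescent medium. Its values were 1.34, 1.24 and 1.57 FPKM in fresh, 1.65, 1.52 and 1.49 FPKM in proliferative, 0.788, 0.934 and 1.14 FPKM in senescent and 1.33, 1.29 and 1.38 FPKM in boiled medium. The fractions had 1.28, 1.58 and 1.56 FPKM (small) and 1.32, 1.3 and 1.44 FPKM (large), and pre-treated cells 1.56, 1.84 and 1.82 then 1.77, 1.3 and 1.46 FPKM. Every library of senescent medium was below every other library. ABCA5 fell by 0.54 ± 0.12 against fresh (adjusted p = 0.000501) and by 0.70 ± 0.12 against proliferative medium (1.19e-05), and rose by 0.48 ± 0.12 on boiling (0.00217), 0.62 ± 0.12 in the small (3.5e-05) and 0.50 ± 0.12 in the large fraction (0.00214).

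ABCA4, the retinoid lipid importer of photoreceptors, was near the minimum. It had 0.125, 0.173 and 0.11 FPKM in fresh, 0.234, 0.208 and 0.315 FPKM in proliferative, 0.171, 0.261 and 0.259 FPKM in senescent and 0.308, 0.251 and 0.209 FPKM in boiled medium. The fractions had 0.222, 0.293 and 0.268 FPKM (small) and 0.176, 0.17 and 0.171 FPKM (large), and pre-treated cells 0.262, 0.143 and 0.189 then 0.208, 0.148 and 0.243 FPKM. Fresh medium was lowest, apart from proliferative medium and overlapping senescent medium. The rise in proliferative medium, 0.88 ± 0.30 (adjusted p = 0.0144), was lost without fresh replicate 1 or 3 or proliferative replicate 3 (up to 0.0954), and that in senescent medium, 0.77 ± 0.30 (0.0454), without fresh replicate 1 or 3 or senescent replicate 2 or 3 (up to 0.169). With the replicate number as a block, this last call was lost as well (0.0515).

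The peroxisomal and lysosomal D members differed little. ABCD3 (PMP70), a peroxisomal importer of fatty acids, had 13.6, 12.5 and 13.5 FPKM in fresh, 12.2, 12.1 and 11.8 FPKM in proliferative, 13.6, 13.7 and 15.3 FPKM in senescent and 14.1, 13.1 and 12.4 FPKM in boiled medium. It had 12.6, 12.7 and 13.1 FPKM in the small and 12.8, 13 and 12.6 FPKM in the large fraction, and 12.5, 13 and 12.8 then 13.1, 12.7 and 12.7 FPKM after pre-treatment. Senescent lay above proliferative medium without overlap, by 0.24 ± 0.05 (adjusted p = 0.000318). Its fall of 0.16 from senescent medium to the small fraction was lost without senescent replicate 3 (0.166). The fall of 0.16 to the large fraction was lost without that library (0.253) or any large fraction library, and the fall of 0.14 in proliferative against fresh medium was lost without any library but fresh replicate 2.

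ABCD4, which helps export cobalamin (vitamin B12) from lysosomes, was lowest in senescent medium at 4.3 ± 0.276 FPKM (SD, n = 3) and highest after pre-treatment with proliferative medium at 6.71 ± 0.255 FPKM. It fell by 0.43 ± 0.07 from proliferative to senescent medium (adjusted p = 2.61e-06) and rose on boiling by 0.30 ± 0.07 (0.000673) and in the small fraction by 0.36 ± 0.07 (2.5e-05).

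Among the members that act in translation, ABCE1 and ABCF1 both fell in proliferative against fresh medium and in the small fraction against senescent medium. ABCE1, which splits ribosomes after termination (ENSG00000164163, chr4:145097932-145129179), had 26.5, 27.1 and 29 FPKM in fresh, 19.7, 17.8 and 18.8 FPKM in proliferative, 24.9, 25.8 and 27.3 FPKM in senescent and 23.8, 24.1 and 21.1 FPKM in boiled medium. It had 17.3, 16.3 and 19.5 FPKM in the small and 22.6, 22.9 and 21 FPKM in the large fraction, and 19.9, 22.9 and 20.7 then 23.9, 22.9 and 22.4 FPKM in pre-treated cells. Proliferative medium and the small fraction lay below all other groups, and overlapped each other. ABCE1 fell by 0.56 ± 0.06 against fresh medium in proliferative medium (adjusted p = 1.43e-09) and by 0.56 ± 0.06 against senescent medium in the small fraction (1.15e-09), and rose by 0.47 ± 0.06 from proliferative to senescent medium (1.14e-07). Its smaller fall on boiling, by 0.18 ± 0.06 (0.0202), was lost without senescent replicate 3 (0.105) or boiled replicate 3 (0.16).

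ABCF1 had 42.5, 41.6 and 43.6 FPKM in fresh, 36.6, 35.2 and 36.3 FPKM in proliferative, 42.9, 44.2 and 42.4 FPKM in senescent and 42.7, 42.5 and 42.1 FPKM in boiled medium. It had 39.2, 38.2 and 36.2 FPKM in the small and 41.5, 41.2 and 40.9 FPKM in the large fraction, and 41.2, 39.2 and 39.7 then 37.7, 38.6 and 39.2 FPKM after pre-treatment. Proliferative medium held the lowest library and the lowest mean, and it overlapped the small fraction only. ABCF1 fell in proliferative against fresh medium by 0.24 ± 0.04 (adjusted p = 3.92e-06), rose by 0.26 ± 0.04 in senescent over proliferative medium (1.78e-06) and fell by 0.19 ± 0.04 in the small fraction against senescent medium (0.000142).

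ABCF2 had 5.65, 6.03 and 5.94 FPKM in fresh, 5.23, 4.89 and 5.19 FPKM in proliferative, 6.91, 6.68 and 5.04 FPKM in senescent and 6.22, 6.46 and 6.44 FPKM in boiled medium. It had 5.76, 4.39 and 4.72 FPKM in the small and 5.3, 6.51 and 4.94 FPKM in the large fraction, and 6.33, 6.12 and 6.29 then 5.38, 4.5 and 5.56 FPKM after pre-treatment. Senescent medium spread over most of that range, with replicate 3 low. ABCF2 rose by 0.28 ± 0.11 in senescent over proliferative medium (adjusted p = 0.0396), a call lost on leaving out any library but senescent replicate 3 (up to 0.222), and fell by 0.33 ± 0.11 in the small fraction (0.0102), lost without senescent replicate 1 or 2 or small fraction replicate 2 (up to 0.0898). ABCF2 too has pseudogenes. ABCF3 stayed between group means of 8.97 and 9.88 FPKM and changed in no comparison.

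The G subfamily, with sterol and drug exporters, was scarce. ABCG4, a sterol exporter known from brain, had 0.455, 0.379 and 0.415 FPKM in fresh, 0.45, 0.348 and 0.343 FPKM in proliferative, 0.371, 0.459 and 0.301 FPKM in senescent and 0.31, 0.371 and 0.394 FPKM in boiled medium. It had 0.858, 0.567 and 0.587 FPKM in the small and 0.355, 0.348 and 0.362 FPKM in the large fraction, and 0.224, 0.185 and 0.408 then 0.304, 0.423 and 0.276 FPKM after pre-treatment. The small fraction was above all other libraries, by 0.82 ± 0.25 over senescent medium (adjusted p = 0.00639, and 0.0686 without small fraction replicate 1) and by 0.91 ± 0.24 over the large fraction (0.00276).

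ABCG2 had 0.177, 0.14 and 0.0549 FPKM in fresh, 0.0987, 0.0702 and 0.04 FPKM in proliferative, 0.145, 0.0907 and 0.225 FPKM in senescent and 0.181, 0.0849 and 0.0998 FPKM in boiled medium. It had 0.097, 0.116 and 0.185 FPKM in the small and 0.123, 0.072 and 0.128 FPKM in the large fraction, and 0.0758, 0.0576 and 0.154 then 0.101, 0.191 and 0.171 FPKM after pre-treatment. Nearly all groups overlapped, with 252 reads in all libraries together. Its difference of 1.11 ± 0.55 between senescent and proliferative medium (adjusted p = 0.128) could not be told from 0 at this depth.

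**Figure D4:**
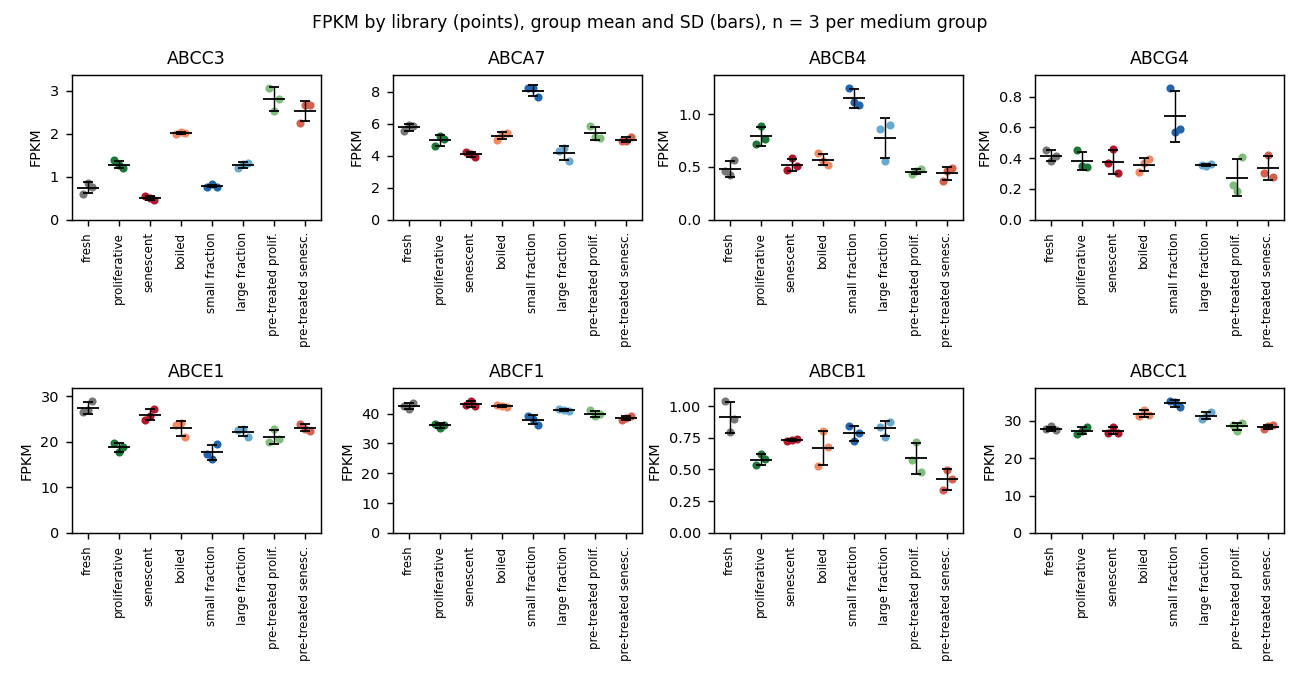
FPKM of 8 ABC members in every library (points) with the group mean and SD (bars, n = 3), on linear axes from 0. ABCC3 is lowest in senescent medium and highest in pre-treated cells, ABCA7, ABCB4 and ABCG4 peak in the small fraction, and ABCE1 and ABCF1 dip in proliferative medium and the small fraction.

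Genes known to work beside the members were counted on lists whose choice knew earlier results of these data. A list set beside ABCE1 and ABCF1 held 18 factors of ribosome recycling, release and the integrated stress response. Of these, 2 rose and 9 fell in proliferative against fresh medium, beside 20.6% and 21.5% of all genes (median log2 fold change −0.12, and 0.00 over all genes). In senescent against proliferative medium 9 rose and 0 fell, beside 16.6% and 12.4% (median 0.15, and −0.01). In the small fraction against senescent medium 1 rose and 9 fell, beside 19.9% and 22.7% (median −0.12, and 0.03). HBS1L, which rescues stalled ribosomes with PELO, rose by 0.42 ± 0.06 in senescent over proliferative medium (adjusted p = 1.77e-07). EIF2S2, a subunit of initiation factor eIF2, fell by 0.46 ± 0.05 in the small fraction (1.42e-11). ATF4 fell there too, by 0.57 ± 0.05 (7.46e-13). In proliferative against fresh medium, however, ATF4 rose by 0.44 ± 0.05 (6.75e-10), the largest change of the list and opposite to its median.

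Partners of the transporters were counted in the same way. Of 17 genes of sterol efflux and the LXR pathway, which controls ABCA1, 9 rose and 3 fell in proliferative against fresh medium, beside 20.6% and 21.5% of all genes (median 0.39). APOE, an acceptor of exported cholesterol, went from 29.3 to 76.3 FPKM (1.37 ± 0.06, adjusted p = 1.56e-23). Against fresh medium, 9 of the list rose and 2 fell in senescent medium (median 0.20), where ABCA1 differed by −0.08 ± 0.07 (0.38). The shares of all genes were 18.2% and 15.5%. After pre-treatment 6 rose and 5 fell (proliferative, median 0.02) and 2 rose and 5 fell (senescent, median 0.12). All genes gave 15.1% and 16.7%, then 14.6% and 15.6%. ABCA1 rose by 0.57 and 0.34 in these groups. In the small fraction APOE reached 114 FPKM, 0.60 ± 0.05 above senescent medium (1.66e-12), where ABCA1 differed by −0.06 ± 0.07 (0.529). Of 19 genes of glutathione synthesis and conjugation, which supply MRP substrates, 5 rose and 5 fell in proliferative against fresh medium (median 0.03). These counts were near the 20.6% and 21.5% of all genes. In senescent against proliferative medium 8 rose and 4 fell, beside 16.6% and 12.4% (median −0.00). The largest change there was a rise of SLC7A11 by 0.94 ± 0.14 (7.08e-07), and the transferase GSTM2 fell by 0.88 ± 0.11 (2.35e-08). In the small fraction against senescent medium 6 rose and 7 fell, beside 19.9% and 22.7% (median 0.05), and GSTM2 rose by 1.24 ± 0.11 (5.09e-13).

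Of 22 tested genes of haem and iron-sulphur assembly, served by ABCB6 and ABCB10 among others, 2 rose and 11 fell on boiling, beside 11.2% and 14.7% of all genes (median −0.14, and 0.00 over all genes). In the large fraction against senescent medium 0 rose and 9 fell, beside 8.14% and 10% (median −0.16, and −0.00). HSCB, a co-chaperone of iron-sulphur assembly, fell by 0.73 ± 0.15 on boiling (adjusted p = 0.000214) and by 0.99 ± 0.15 in the small fraction (8.67e-07). Of 20 genes of peroxisomal import and beta-oxidation, 10 rose and 3 fell in proliferative against fresh medium, beside 20.6% and 21.5% (median 0.20), and 1 rose and 1 fell in senescent against proliferative medium, beside 16.6% and 12.4% (median −0.01). Of 19 tested drug uptake carriers and platinum or copper handling genes, 4 rose and 4 fell in proliferative against fresh medium (median 0.07), near the shares of all genes, and 5 rose and 5 fell in the small fraction, beside 19.9% and 22.7% (median 0.03). Among 20 tested transcription regulators of ABC genes, 7 rose and 5 fell in the small fraction, beside the same shares (median 0.16), and there MYC fell by 0.85 ± 0.05 (4.83e-18) and HIF1A rose by 0.64 ± 0.07 (3.06e-08).

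Family genes with other symbols were also read. TAP1, a transporter subunit for antigenic peptides in the endoplasmic reticulum, was at 14.9 FPKM in fresh, 17.9 FPKM in senescent and 20.2 FPKM in small fraction medium, and fell after pre-treatment to 12 FPKM (proliferative, −0.32 ± 0.07, adjusted p = 0.000239) and 11 FPKM (senescent, −0.44 ± 0.07, 1.89e-06). Its partner TAP2 fell with it against fresh medium in both, by 0.25 ± 0.06 (0.00166) and 0.34 ± 0.06 (4.17e-05). CFTR, the chloride channel of the C subfamily, did not pass the filter on low counts.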

How the data were processed

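Polyadenylated RNA of OVCAR8 cells was sequenced in 24 libraries, 3 in each of 8 groups taken from the labels. The deposited table gives raw read counts per gene and FPKM values, both as deposited by the authors. Submitters' processing notes name STAR 2.6.1, DESeq2 and GRCh38, with no role. The read counter and strand setting were not given in the sources used here. FPKM recomputed from counts and gene lengths matched the deposited FPKM within 1e-04 for 100.0% of 367263 values, so both carry the same reads. FPKM describes levels and the counts carry every test.

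Counts were fitted in 1 model over all groups with edgeR 4.0.16 in R 4.3.3 (filterByExpr, TMM scaling, quasi-likelihood F test, Benjamini-Hochberg adjustment over 19210 genes, threshold 0.05). SE was the log2 fold change over the root of F. Members, lists and tests were chosen with earlier results of these data known. Genes given by library were the members called with a change of at least 0.8 and those among the 3 largest changes of a comparison. The member with the highest mean FPKM of each subfamily was given so too, and others by range and count. Some members are counted but not reported here by name. On simulated counts for senescent against proliferative medium (18772 genes), 57.8% of 1.25-fold, 82.6% of 1.5-fold and 95.5% of 2-fold changes were recovered. The changed genes were drawn only from those above a minimum mean count, so these rates do not cover scarce members such as ABCG2. Replicate numbers are not said to pair libraries. Same-numbered libraries had a median correlation of deviations of −0.0102 over 84 pairs (−0.282 to 0.508). Libraries with other numbers had 0.000436 over 168 pairs (−0.484 to 0.354). A median over all pairs cannot exclude pairing between some groups. Alternatives were library totals, no filter, a replicate block, a length and GC offset (mgcv 1.9.3), DESeq2 1.42.0 and leaving out each library.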

Additional observations from a re-analysis of the deposited data

Results flagged for a closer look

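For 9 members the senescent minus proliferative difference itself differed between pre-treated and directly exposed cells, by the edgeR interaction term (log2, pre-treated minus direct). The term was 1.21 for ABCC3, 0.49 for ABCA5, 0.35 for ABCD4 and 0.27 for ABCA2, which fell from proliferative to senescent medium under direct exposure. It was −0.34 for ABCE1, −0.32 for ABCF1, −0.56 for ABCF2 and −0.23 for ABCD3, which rose there. ABCB1 had −0.82. The terms of ABCA5 and ABCD3 were each lost on leaving out any 1 of 6 of the 12 libraries involved, and that of ABCB1 on leaving out any 1 of 10. The ABCB1 term was also lost with library totals, no filter, the replicate block, the length and GC offset and DESeq2, and the ABCA2 term with that offset (adjusted p = 0.152).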

How the results depend on the processing

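No called result changed direction in any alternative. Of 140 calls, 99 held in every leave-one-out fit and 94 in those and all other alternatives. The count of members changed in senescent against fresh medium was 11 and ran from 7 to 10 on leaving out single libraries. Between the pre-treatments it was 0, ran from 0 to 1 on leaving out single libraries, and was 1 with the length and GC offset, 1 with the replicate block and that offset together, and 1 with DESeq2, ABCA1 each time; the cause was not tested. The replicate block ended 2 calls, ABCA4 in senescent against fresh medium (adjusted p = 0.0515) and the ABCB1 interaction (0.0543), and it changed no other. Low counts limit ABCG2, ABCC9, ABCA4 and ABCB6 most.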
